A study of Mus musculus with 6 samples.

Results

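The 6 genes described here mark the leptin receptor-positive reticular cells of bone marrow (BM) and their adipocyte relatives, or build the contacts that such cells make. They are the reticular genes *Lepr* and *Igfbp5*, the adipocyte genes *Adipoq* and *Fabp4*, and the contact genes *Cdh2* and *Gja1*. They were taken by gene symbol from a table of 621 genes, in which each symbol stood once. The values are FPKM (fragments relative to exon length and to all fragments mapped in a library), so levels can be set beside each other between genes.

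The study compared mRNA of BM cells from *Phc2* KO mice with that of WT mice, both bred from heterozygous parents on a C57BL/6 background and taken at 8 weeks of age. *Phc2* encodes a subunit of the Polycomb repressive complex 1, and the study asked what its loss does to the BM niche that holds hematopoietic stem and progenitor cells. KO replicates 4, 8 and 9 and WT replicates 1, 3 and 7 gave 3 libraries per genotype, made from total BM of femurs and tibias, so stromal and blood cells were measured together. Titles and source of the KO samples give a *Phc2* knockout, whereas their genotype field gives a heterozygote, and the level of *Phc2*, not analysed here, served for no check of this.

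Leptin receptor-positive reticular cells line the sinusoids of the marrow, secrete factors that retain stem cells and are a source of marrow adipocytes and bone cells. A fraction of them is primed towards fat and already transcribes adiponectin. N-cadherin, the product of *Cdh2*, joins neighbouring cells through calcium-dependent adhesion, and connexin 43, the product of *Gja1*, forms the gap junctions through which stromal cells and osteoblasts exchange small molecules. In total BM, fewer cells of a type and less RNA per cell cannot be told apart.

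On GRCm38, the assembly that mm10 names, *Lepr* lies at chr4:101717137-101815352, *Igfbp5* at chr1:72858065-72874865 and *Adipoq* at chr16:23146536-23157968. *Fabp4* lies at chr3:10204342-10208616 and *Gja1* at chr10:56377300-56390419. The FPKM of a gene counts fragments over the exons of its transcripts. RefSeq promoters of GRCm38.p6, 250 bases before the start and 50 after it, were matched by symbol for *Adipoq*, *Gja1* and *Igfbp5*, that is for 3 of the 6. *Lepr*, *Fabp4* and *Cdh2* were not matched. The promoters of 1 adipocyte gene and 1 contact gene are shown so that the starts of the genes compared below can be read side by side, 5′ to 3′ on the strand of the gene, with an AP-1 match in capitals.
Adipoq, chr16:23146286-23146585, plus strand: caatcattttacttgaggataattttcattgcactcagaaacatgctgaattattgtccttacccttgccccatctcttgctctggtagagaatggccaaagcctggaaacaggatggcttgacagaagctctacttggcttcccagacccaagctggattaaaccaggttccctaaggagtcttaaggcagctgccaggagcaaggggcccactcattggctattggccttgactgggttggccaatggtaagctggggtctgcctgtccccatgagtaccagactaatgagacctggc
Gja1, chr10:56377050-56377349, plus strand: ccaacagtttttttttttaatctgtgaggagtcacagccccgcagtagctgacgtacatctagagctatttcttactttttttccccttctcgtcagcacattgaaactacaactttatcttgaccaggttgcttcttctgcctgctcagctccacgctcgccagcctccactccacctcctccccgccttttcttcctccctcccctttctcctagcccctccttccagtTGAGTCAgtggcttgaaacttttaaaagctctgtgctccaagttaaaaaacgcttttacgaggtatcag

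The *Adipoq* promoter held 0 CpG dinucleotides, which was so for 5.43% of the 32851 promoters of the table. The *Gja1* promoter held 8, with an observed over expected CpG ratio of 0.544, and that of *Igfbp5* held 10, with a ratio of 0.420. The median over all promoters was 7 CpG and a ratio of 0.384. Both strands were searched for 8 motifs, and the AP-1 motif TGANTCA in *Gja1*, which begins 19 bases before the start, was the single match in the 3 promoters. It stands in 7.8% of all promoters. No match was found for TTGCNNAA (10.8% of promoters, C/EBP), TGTGGT (16.8%, RUNX), TATAAA (13.6%, the TATA box), GGGCGG (35.7%, the GC box), the EBF motif (0.9%) or the direct repeats of nuclear receptors with and without a spacer base (0.0% each).

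The libraries fell into 2 sets across the genotypes, and the main comparisons below are given with this division. *Xist*, the noncoding RNA of the inactive X chromosome in female cells, had 74.6 FPKM in KO replicate 4, against 113 and 98.2 FPKM in WT replicates 1 and 3. KO replicates 8 and 9 had 0.0192 and 0.0155 FPKM, against 0.00848 FPKM in WT replicate 7. The sets are therefore named with and without *Xist*, divided at 1 FPKM, and hold KO and WT in unequal number. The table holds only genes that the authors selected on the same libraries because they differed by 2-fold or more in 1 or more of the 9 possible KO to WT pairings, so p-values are not independent evidence. Whether each library stands for a separate mouse is not given in the sources, and the p-values measure the spread between these libraries. At an adjusted p of 0.05 limma called 0 of the 621 genes (smallest adjusted p = 0.517), and the median log2 fold change of KO over WT was -0.35. An unadjusted p under 0.05 was found for 8 higher and 6 lower genes. Without WT replicate 7 it was found for 61 higher and 191 lower genes. That leaves WT replicates 1 and 3, both with *Xist*, as the WT group, so genotype and the *Xist* division are then largely mixed. Depth was not determined, since reads were not used.

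None of the 6 genes differed between KO and WT beyond the spread of the libraries. All had a lower mean in KO BM, as did 61.8% of the 621 genes on the log2(FPKM + 1) scale, although the direction turned for *Adipoq* under quantile and median scaling and for *Adipoq* and *Fabp4* with a term for *Xist*. Each was low in WT replicate 7 and high in KO replicate 4, so that the groups overlapped in every case. In the 6 libraries *Fabp4* was the most abundant and *Cdh2* the least, with *Gja1* above *Lepr* between them. *Igfbp5* and *Adipoq* held the places below *Fabp4*, with *Adipoq* above *Igfbp5* only in KO replicates 8 and 9. The range of each gene over the 6 libraries overlapped that of its neighbour in this order, so the order holds within a library rather than across libraries.

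**Figure D1:**
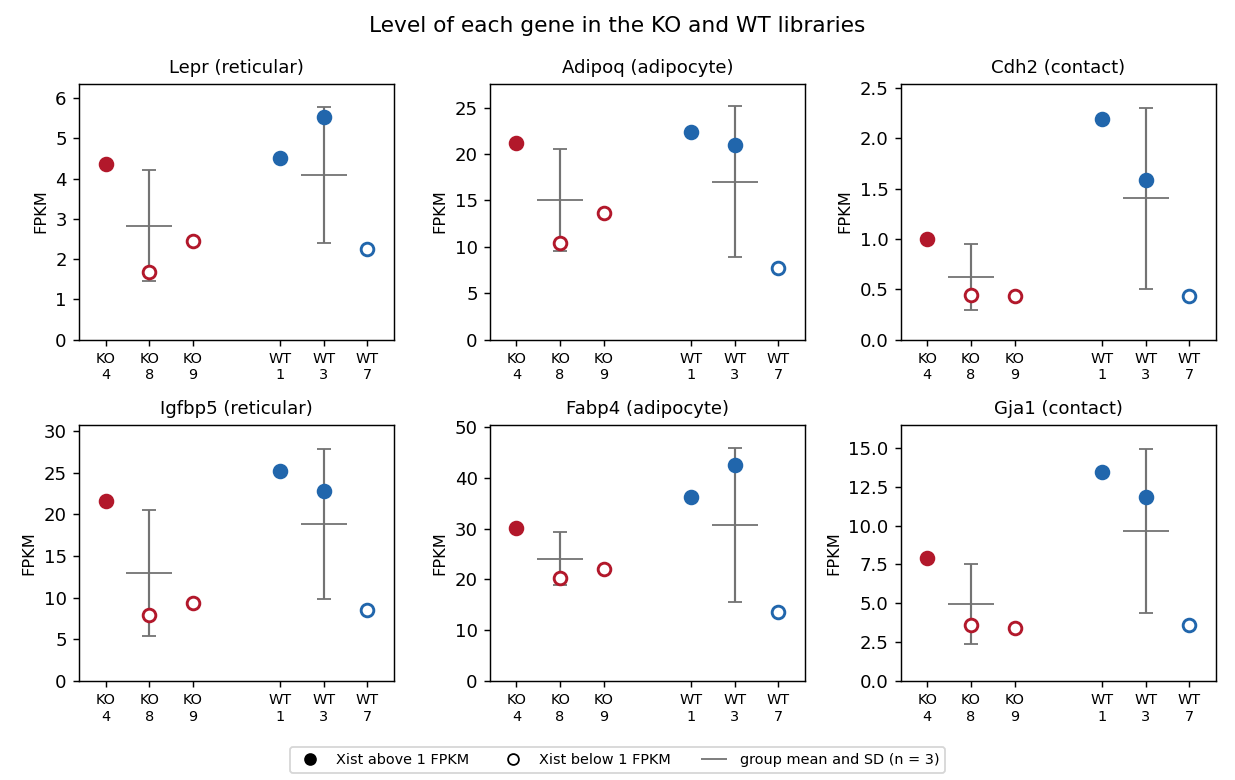
FPKM (vertical axes, from 0) of the 6 genes in KO replicates 4, 8 and 9 (red) and WT replicates 1, 3 and 7 (blue). Filled points are libraries with *Xist* above 1 FPKM, open points those below, and grey lines give the mean and SD of each group (n = 3). In each panel the filled points lie above the open ones, and WT replicate 7 lies far below the other WT libraries.

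*Lepr* encodes the receptor for leptin and is the defining surface marker of these reticular cells. Its level was 4.37, 1.69 and 2.44 FPKM in KO replicates 4, 8 and 9, against 4.52, 5.53 and 2.24 FPKM in WT replicates 1, 3 and 7. KO replicate 4 stood close to WT replicate 1, and WT replicate 7 lay between the lower KO libraries, so the groups overlapped. KO libraries averaged 2.83 ± 1.38 FPKM and WT libraries 4.10 ± 1.69 FPKM (SD, n = 3 each). This gave a log2 fold change of -0.41 (standard error 0.47, 95% interval -1.39 to 0.57, limma adjusted p = 0.602), or -0.06 relative to the median of all genes.

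*Igfbp5* encodes an insulin-like growth factor-binding protein that osteoblasts and marrow stromal cells secrete. Its level was 21.6, 7.93 and 9.32 FPKM in KO replicates 4, 8 and 9, against 25.3, 22.8 and 8.53 FPKM in WT replicates 1, 3 and 7. The libraries split as for *Lepr*, with KO replicate 4 near the high WT libraries and WT replicate 7 among the low KO ones. KO libraries averaged 13.0 ± 7.53 FPKM and WT libraries 18.9 ± 9.03 FPKM, a log2 fold change of -0.51 (standard error 0.53, 95% interval -1.61 to 0.60, limma adjusted p = 0.598).

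*Adipoq* encodes adiponectin, a hormone of fat cells that is also transcribed in adipocyte-primed reticular cells. Its level was 21.1, 10.4 and 13.6 FPKM in KO replicates 4, 8 and 9, against 22.4, 21.0 and 7.67 FPKM in WT replicates 1, 3 and 7. Both the highest and the lowest library were WT, and all KO libraries lay between them. KO libraries averaged 15.1 ± 5.50 FPKM and WT libraries 17.0 ± 8.12 FPKM, with a log2 fold change of -0.09 (standard error 0.51, 95% interval -1.16 to 0.98, limma adjusted p = 0.909). It lay 0.26 above the median of all genes, and its sign turned to 0.024 under quantile normalization and 0.040 under median scaling.

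*Fabp4* encodes a fatty acid-binding protein of adipocytes, which endothelial cells and macrophages also make. Its level was 30.1, 20.2 and 22.0 FPKM in KO replicates 4, 8 and 9, against 36.3, 42.5 and 13.5 FPKM in WT replicates 1, 3 and 7. As for *Adipoq*, the KO libraries lay within the range of the WT ones. KO libraries averaged 24.1 ± 5.25 FPKM and WT libraries 30.7 ± 15.3 FPKM, with a log2 fold change of -0.21 (standard error 0.52, 95% interval -1.28 to 0.86, limma adjusted p = 0.784). Relative to the median of all genes it was 0.14, and without WT replicate 3 the change itself was 0.09.

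*Cdh2*, the N-cadherin gene at chr18:16588877-16809246, is transcribed in mesenchymal cells of the niche, osteoblasts among them. Its level was 1.00, 0.438 and 0.431 FPKM in KO replicates 4, 8 and 9, against 2.19, 1.58 and 0.428 FPKM in WT replicates 1, 3 and 7. WT replicates 1 and 3 were above every KO library, whereas WT replicate 7 was level with KO replicates 8 and 9. KO libraries averaged 0.623 ± 0.327 FPKM and WT libraries 1.40 ± 0.897 FPKM, with a log2 fold change of -0.51 (standard error 0.44, 95% interval -1.41 to 0.40, limma adjusted p = 0.598). Since 1 FPKM was added before the logarithm, this understates the change of so low a gene, which was -0.90 with 0.1 FPKM added.

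*Gja1*, the connexin 43 gene, measured 7.92, 3.57 and 3.39 FPKM in KO replicates 4, 8 and 9, against 13.4, 11.9 and 3.60 FPKM in WT replicates 1, 3 and 7. As for *Cdh2*, WT replicates 1 and 3 were above KO replicate 4, and the other libraries lay together at the low end, so the groups overlapped. KO libraries averaged 4.96 ± 2.56 FPKM and WT libraries 9.64 ± 5.29 FPKM. The log2 fold change was -0.75 (standard error 0.52, 95% interval -1.84 to 0.33, limma adjusted p = 0.598), and relative to the median of all genes it was -0.40.

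By the limma test, 0 of the 6 genes passed the adjusted threshold, where 0% of all 621 did, and 0 of the 6 had an unadjusted p under 0.05, where 2.25% of all genes did. Exact permutation tests of each gene gave two-sided p of 0.2 for *Gja1*, 0.4 for *Lepr*, *Igfbp5* and *Cdh2*, 0.8 for *Fabp4* and 0.9 for *Adipoq*, and 3 against 3 libraries cannot go below 0.1. The groups were apart for 0 of the 6 genes and for 7.25% of all genes. Except for *Adipoq*, the overlap rests on WT replicate 7. Without it, the KO libraries lay below both WT libraries for 5 of the 6, all but *Adipoq*. The same was so for 45.7% of all genes. Both WT libraries that are left have *Xist*. All 6 genes were higher in each library with *Xist*, so the KO libraries without *Xist* had to lie below them. Only the KO library with *Xist* could lie on either side. It had 21.1 FPKM of *Adipoq*, against 21.0 FPKM in WT replicate 3. Genotype and the *Xist* division are thus largely mixed here, and genotype alone was not tested. With this mixture, the log2 fold changes without WT replicate 7 were -1.27 for *Gja1*, -0.97 for *Igfbp5*, -0.84 for *Cdh2*, -0.71 for *Lepr*, -0.70 for *Fabp4* and -0.55 for *Adipoq*. The median over all genes was -0.58, and the smallest limma adjusted p of the 6 was 0.104.

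All 6 genes were higher in each library with *Xist* than in any library without it, which was so for 28.2% of the 621 genes. The mean FPKM with *Xist* was 3.68-fold that without for *Cdh2*, 3.15-fold for *Gja1*, 2.70-fold for *Igfbp5*, 2.27-fold for *Lepr*, 2.03-fold for *Adipoq* and 1.95-fold for *Fabp4*. By these folds of FPKM the contact genes were the highest of the 6 across this division and the adipocyte genes the lowest, as a description of 3 libraries on each side. On the log2(FPKM + 1) scale this order of classes did not hold. The difference there was 1.39 for *Gja1*, 1.34 for *Igfbp5*, 0.99 for *Adipoq*, 0.94 for *Fabp4*, 0.90 for *Lepr* and 0.83 for *Cdh2*. Over all 6 libraries the highest value of a gene was between 2.92-fold (*Adipoq*) and 5.13-fold (*Cdh2*) its lowest, against a median of 3.32-fold for the 575 genes with a mean of at least 1 FPKM.

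Within the divisions, the contact genes had the lowest folds of KO over WT with *Xist*, and the adipocyte genes had the highest without it. Among libraries with *Xist*, KO replicate 4 had 0.626-fold the mean FPKM of WT replicates 1 and 3 for *Gja1* and 0.530-fold for *Cdh2*, against 0.975-fold for *Adipoq*, 0.764-fold for *Fabp4*, 0.870-fold for *Lepr* and 0.899-fold for *Igfbp5*. Among libraries without *Xist*, KO replicates 8 and 9 averaged 1.57-fold the FPKM of WT replicate 7 for *Adipoq* and likewise 1.57-fold for *Fabp4*. There the contact genes were at 0.967-fold for *Gja1* and 1.02-fold for *Cdh2*, and the reticular genes at 0.922-fold for *Lepr* and 1.01-fold for *Igfbp5*. The median log2 difference of KO from WT over all genes was -0.29 with *Xist* and 0.09 without. Each division has a single library in 1 of its groups. The difference between divisions passed the threshold for 0 of the 6 genes, where 0.483% of all genes (3 of 621) did. The interaction of genotype and *Xist* was -0.98 on the log2 scale for *Fabp4* (limma adjusted p = 0.365), -0.61 for *Adipoq* (0.504), -0.57 for *Gja1* (0.452), -0.53 for *Cdh2* (0.406), -0.16 for *Igfbp5* (0.866) and -0.07 for *Lepr* (0.925).

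**Figure D2:**
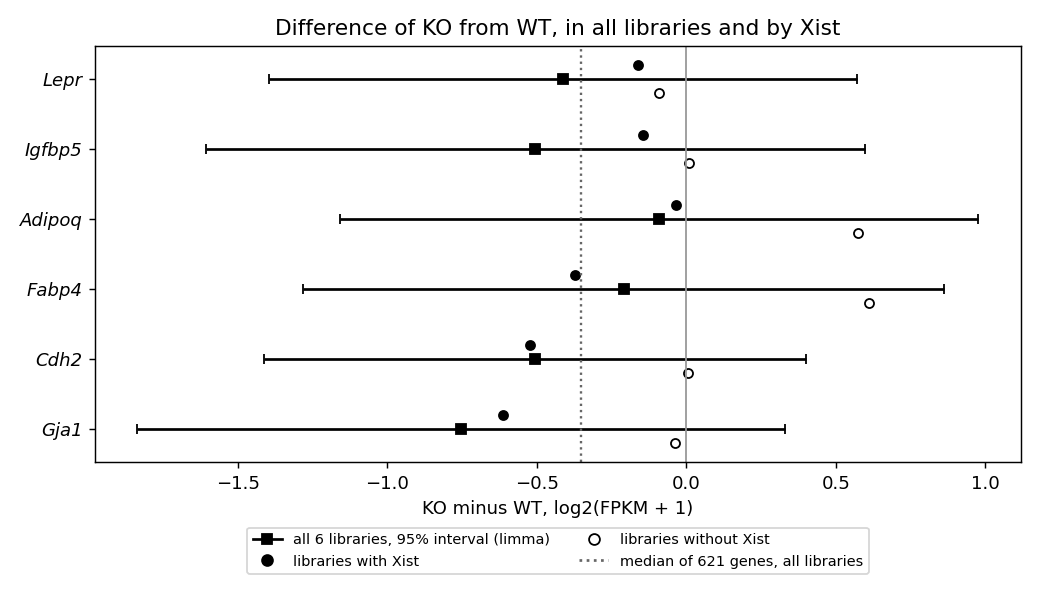
Difference of KO from WT in log2(FPKM + 1) (horizontal axis) for the 6 genes. Squares and bars give the limma log2 fold change and its 95% interval over all 6 libraries, filled circles the difference among libraries with *Xist*, open circles that among libraries without, and the dotted line the median of 621 genes at -0.35. Every interval spans 0, and the open circles of *Adipoq* and *Fabp4* lie to the right at 0.58 and 0.61.

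The comparison of the adipocyte genes with the contact genes was made within each library, so that what raises or lowers both genes alike does not enter it. In FPKM, from which the ratios were made, the *Xist* division did not act alike on them and can still enter the ratios. The mean with *Xist* over that without was 2.03 for *Adipoq* and 1.95 for *Fabp4*, against 3.15 for *Gja1* and 3.68 for *Cdh2*. *Adipoq* stood higher relative to the contact genes in each KO library than in any WT library. The ratio of *Adipoq* over *Gja1* was 2.67, 2.92 and 4.02 in KO replicates 4, 8 and 9, against 1.67, 1.77 and 2.13 in WT replicates 1, 3 and 7. The means were 3.20 ± 0.715 in KO and 1.85 ± 0.244 in WT (SD, n = 3 each), and the groups did not overlap. *Adipoq* over *Cdh2* was 21.1, 23.8 and 31.6 in the KO libraries, against 10.2, 13.3 and 17.9 in the WT libraries, again without overlap. Its means were 25.5 ± 5.41 in KO and 13.8 ± 3.90 in WT.

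*Fabp4* over *Gja1* was 3.80, 5.66 and 6.51 in KO replicates 4, 8 and 9, against 2.70, 3.58 and 3.74 in WT replicates 1, 3 and 7. The groups were apart by a narrow margin, between KO replicate 4 and WT replicate 7, and the means were 5.32 ± 1.38 in KO and 3.34 ± 0.562 in WT. *Fabp4* over *Cdh2* was 30.1, 46.2 and 51.1 in the KO libraries, against 16.5, 26.8 and 31.5 in the WT libraries. Here KO replicate 4 fell just below WT replicate 7, so these groups overlapped. Of the 4 ratios, 3 were thus without overlap and higher in KO, where 9.34% of the 192510 ratios of any 2 genes of the table were without overlap in either direction. Within each *Xist* division, all 4 ratios were higher in every KO library than in any WT library, and 24.1% of all ratios of the table were likewise apart in the same direction in both divisions. The 4 ratios share genes and libraries, the genes were chosen with results known, and no p is given.

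**Figure D3:**
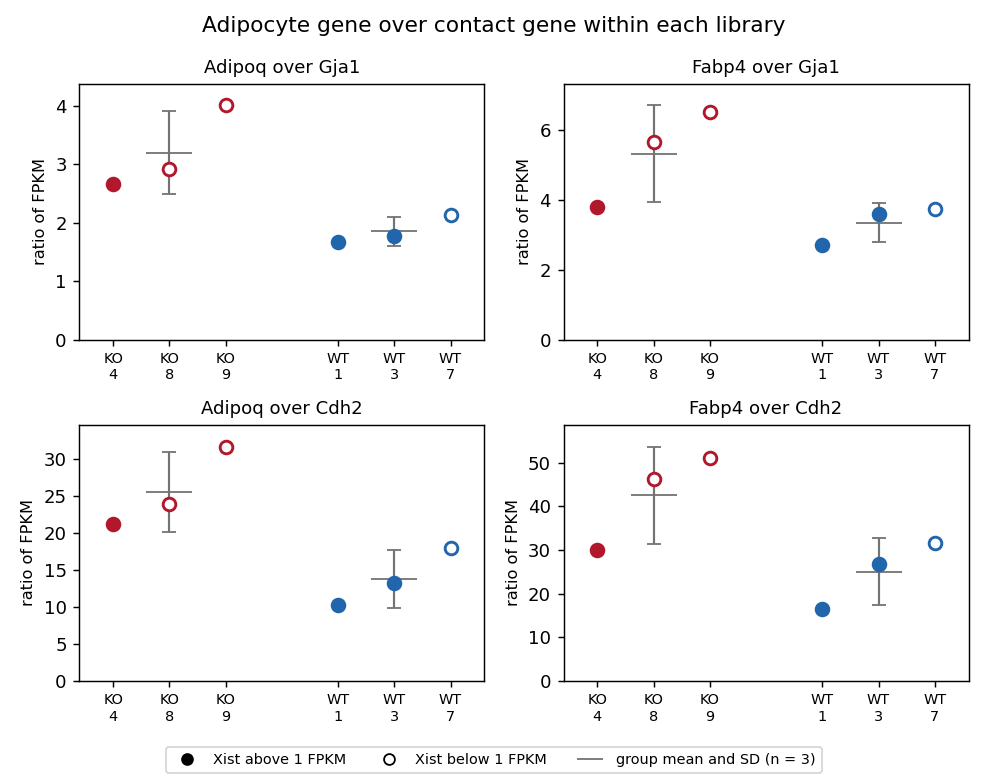
Ratio of the FPKM of an adipocyte gene over that of a contact gene within each library (vertical axes, from 0), for KO replicates 4, 8 and 9 (red) and WT replicates 1, 3 and 7 (blue). Filled and open points are libraries with *Xist* above and below 1 FPKM, and grey lines give the mean and SD (n = 3). The KO points lie above the WT points in each panel except *Fabp4* over *Cdh2*, where KO replicate 4 at 30.1 lies below WT replicate 7 at 31.5.

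The same comparison as a difference of means of log2(FPKM + 1), *Adipoq* and *Fabp4* minus *Cdh2* and *Gja1*, was 2.64, 2.60 and 2.87 in KO replicates 4, 8 and 9, against 2.12, 2.42 and 2.13 in WT replicates 1, 3 and 7. The KO mean of 2.70 ± 0.147 exceeded the WT mean of 2.22 ± 0.173 by 0.48, more than the SD of either group. The excess was 0.36 among libraries with *Xist* and 0.61 among those without, so it had the same direction on both sides of the division. With *Xist* it came with contact genes that were lower in KO replicate 4, and without *Xist* with adipocyte genes that were higher in KO replicates 8 and 9.

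Of the 4 ratios of a reticular over a contact gene, 0 were without overlap, where 9.34% of the ratios of any 2 genes of the table were. Among libraries with *Xist* all 4 were higher in KO than in each WT library. Among libraries without *Xist*, KO replicate 8 was below WT replicate 7 for all 4. Whether they differ from the ratios of the adipocyte genes was not tested. *Lepr* over *Gja1* was 0.552, 0.472 and 0.720 in KO replicates 4, 8 and 9, against 0.336, 0.466 and 0.622 in WT replicates 1, 3 and 7. *Igfbp5* over *Gja1* was 2.73, 2.22 and 2.75 in the KO libraries, against 1.88, 1.92 and 2.37 in the WT libraries. KO replicate 9 was above all WT libraries for both ratios and KO replicate 4 only for that of *Igfbp5*, while KO replicate 8 was below WT replicate 7 for both. The mean difference of reticular minus contact genes in log2(FPKM + 1) was 0.17 higher in KO, with 0.41 among libraries with *Xist* and -0.02 among those without. For the adipocyte genes these were 0.36 and 0.61, so with *Xist* the reticular genes did not fall short of them.

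Ratios within a class overlapped between the groups. *Gja1* over *Cdh2* was 7.92, 8.16 and 7.86 in KO replicates 4, 8 and 9, against 6.13, 7.50 and 8.42 in WT replicates 1, 3 and 7. *Adipoq* over *Fabp4* was 0.703, 0.516 and 0.617 in the KO libraries, against 0.617, 0.494 and 0.569 in the WT libraries. *Igfbp5* over *Lepr* was 4.94, 4.70 and 3.82 in the KO libraries, against 5.59, 4.13 and 3.81 in the WT libraries. Each of these 3 ratios varied by less than 2-fold over the libraries, as did *Igfbp5* over *Gja1* and over *Cdh2*, so this was not particular to ratios within a class.

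Other genes of the same kinds were taken from lists written from knowledge of the marrow niche, and none of their genes passed the limma test in either direction. Genes of lists and pathways are called higher or lower in mean by their mean log2(FPKM + 1), which was lower in KO for 61.8% of all genes. Of 39 adipocyte genes, 5 were in the table, and 4 of them were lower and 1 was higher in mean in KO, with a median log2 fold change of -0.09 against -0.35 for all genes. Beside *Adipoq* and *Fabp4* these were *Lpl*, *Car3* and *Retn*. *Lpl*, the lipoprotein lipase, measured 23.5, 9.82 and 9.18 FPKM in KO replicates 4, 8 and 9, against 16.6, 16.9 and 8.27 FPKM in WT replicates 1, 3 and 7. It was thus the highest in KO replicate 4, and its log2 fold change was -0.04, while its mean FPKM was 14.2 ± 8.11 in KO and 13.9 ± 4.92 in WT. *Car3*, a carbonic anhydrase of fat and muscle, measured 9.41, 2.78 and 2.77 FPKM in the KO libraries, against 16.7, 8.50 and 1.55 FPKM in the WT libraries. *Retn*, which encodes resistin, was the single list gene with a higher mean log2(FPKM + 1) in KO and lay at or below 1.55 FPKM throughout.

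Of 33 cadherins, connexins and junction partners, 6 were in the table, and all 6 were lower in mean in KO, with a median log2 fold change of -0.72. *Cdh5* and *Cldn5*, junction genes of endothelium, belong to them. *Cdh5*, the vascular endothelial cadherin, measured 3.75, 2.30 and 1.78 FPKM in KO replicates 4, 8 and 9, against 7.19, 7.52 and 2.47 FPKM in WT replicates 1, 3 and 7. Its KO libraries with and without *Xist* each lay below the WT libraries of the same set. *Cldn5*, the claudin of endothelial tight junctions, measured 2.32, 0.703 and 0.723 FPKM in the KO libraries, against 4.65, 4.45 and 0.816 FPKM in the WT libraries. *Cdh11*, the osteoblast cadherin, and *Esam*, an endothelial adhesion molecule, likewise had lower values in KO than in WT within each set, with log2 fold changes of -0.65 and -0.69.

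After the ratios of the 6 genes had been seen, each adipocyte gene of the list was set over each junction gene of the list in the same way. Of these 30 ratios, 15 were without overlap and higher in KO, and 0 were without overlap and lower, beside 9.34% of all ratios of the table. Of the 12 ratios that use none of the 6 genes, 5 were without overlap. All 6 ratios of *Lpl* were without overlap, although *Lpl* over *Cldn5* was so only by 10.139 in KO replicate 4 against 10.128 in WT replicate 7. *Adipoq* had 5 of 6 ratios without overlap, *Fabp4* 3 of 6, *Car3* 1 of 6 and *Retn* 0 of 6. *Lpl* over *Gja1* was 2.97, 2.75 and 2.71 in KO replicates 4, 8 and 9, against 1.24, 1.43 and 2.30 in WT replicates 1, 3 and 7. The ratios share genes, so their number is not a number of independent observations.

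Of 40 genes of reticular cells and mesenchymal stem cells, 13 were in the table, 12 with a lower mean in KO and 1, *Thy1*, with a higher one (median log2 fold change -0.51). *Thy1* is also a surface glycoprotein of T cells. *Ebf1*, a transcription factor of both reticular cells and B cell precursors, measured 11.7, 14.7 and 13.6 FPKM in KO replicates 4, 8 and 9, against 36.0, 19.2 and 11.2 FPKM in WT replicates 1, 3 and 7. *Dcn*, the matrix proteoglycan decorin, measured 12.1, 2.56 and 2.90 FPKM in the KO libraries, against 22.4, 13.8 and 2.19 FPKM in the WT libraries. *Dcn* thus followed the *Xist* division, as *Lepr* did, whereas *Ebf1* was not higher in KO replicate 4 than in KO replicates 8 and 9. *Cxcl12* and *Kitl*, the niche factors that these cells are best known for, were not analysed here.

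Few further genes of the leptin and insulin-like growth factor pathways were in the table. Of 12 leptin signaling genes there were 3, of which *Socs3*, an inhibitor of the leptin receptor that leptin induces, had the higher mean in KO. *Socs3* measured 10.4, 8.96 and 16.3 FPKM in KO replicates 4, 8 and 9, against 5.02, 7.89 and 11.8 FPKM in WT replicates 1, 3 and 7. Its libraries overlapped and did not follow the order of *Lepr*. The inhibitor *Socs1* had a log2 fold change of -0.50. Of 16 genes of the insulin-like growth factor axis there were 2, *Igfbp5* and *Igfbp7*, and *Igfbp7* measured 21.1, 10.1 and 12.1 FPKM in the KO libraries, against 21.5, 25.1 and 11.8 FPKM in the WT libraries (log2 fold change -0.41).

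The deposited pathway sheet placed 5 of the 6 genes in 13 of its 247 KEGG pathways, and *Igfbp5* in none. PPAR signaling held *Adipoq*, *Fabp4* and *Lpl* of the table, all 3 with a lower mean log2(FPKM + 1) in KO and a median log2 fold change of -0.09. Gap junction held *Gja1* and the tubulins *Tubb1* and *Tubb2b*, all 3 lower in mean, with a median of -0.50. The adipocytokine pathway held *Adipoq*, *Lepr* and *Socs3*, and regulation of lipolysis held *Fabp4*, *Npr1*, *Pik3r1* and *Ptgs2*, with 2 genes higher and 2 lower in mean. Of the 18 genes of the cell adhesion molecule pathway, 13 had a higher mean in KO, and *Cdh2* was among the 5 with a lower mean. The 4 most abundant of them, *H2-Aa*, *H2-Ab1*, *H2-Eb1* and *H2-Q9*, encode major histocompatibility complex proteins. None of these pathway genes passed the limma test.

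Genes of other marrow cell types moved across the *Xist* division with the 6 genes, and their part in the results was not tested. The table held 12 of 20 osteoblast and osteocyte genes. All 12 were higher in each library with *Xist* than in any without it, as were 28.2% of all genes. All 12 were also lower in mean in KO, as were 61.8% of all genes. Their summed FPKM was 719, 131 and 167 in KO replicates 4, 8 and 9, against 1506, 930 and 121 in WT replicates 1, 3 and 7. *Col1a1*, the main collagen of bone, measured 216, 26.6 and 31.6 FPKM in the KO libraries, against 471, 284 and 23.0 FPKM in the WT libraries. Among libraries with *Xist*, the sums thus followed the order of *Gja1*, *Cdh2* and *Igfbp5*, and they had a wider range over all libraries. KO replicate 4 was below both WT libraries with *Xist* for *Lepr* and *Fabp4* too, so for all of the 6 genes but *Adipoq*.

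The table held 14 of 23 endothelial genes, of which 13 were higher in each library with *Xist* than in any without it, as were 28.2% of all genes. The summed FPKM was 64.2, 36.5 and 33.3 in KO replicates 4, 8 and 9, against 75.9, 75.6 and 35.7 in WT replicates 1, 3 and 7. *Ly6a*, the single one of these genes with a higher mean in KO, made up a large part of the KO sums. It measured 26.7, 23.3 and 20.3 FPKM in the KO libraries, against 14.4, 12.4 and 20.4 FPKM in the WT libraries. Smooth muscle and pericyte genes (4 of a list of 14), chondrocyte genes (4 of 14) and osteoclast genes (2 of 10) were all lower in mean in KO, with median log2 fold changes of -0.42, -0.73 and -0.84. The macrophage markers *Cd5l*, *Cd163* and *Timd4*, 3 of a list of 14, went the other way, and all 3 had a higher mean in KO. Their summed FPKM was 41.0, 27.6 and 27.9 in the KO libraries, against 21.8, 25.7 and 17.0 in the WT libraries, without overlap. Taken singly, *Cd5l* and *Timd4* overlapped between the groups, and only *Cd163* was apart, as were 7.25% of all genes in either direction. How often the sum of a list is apart was not tested. None of the genes of these lists was at 0 in any library, which was so for all 621 genes of the table.

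**Figure D4:**
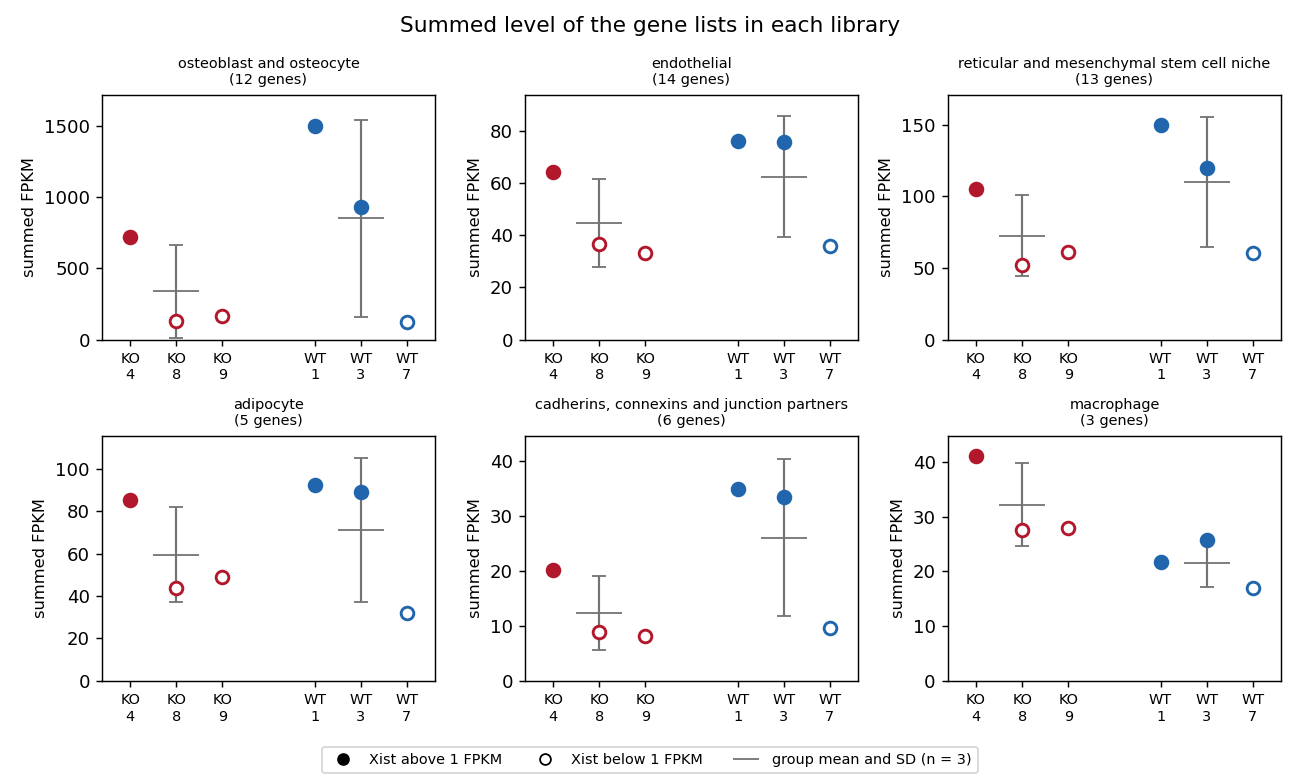
Summed FPKM (vertical axes, from 0) of the genes of 6 lists in KO replicates 4, 8 and 9 (red) and WT replicates 1, 3 and 7 (blue). Filled and open points are libraries with *Xist* above and below 1 FPKM, and grey lines give the mean and SD (n = 3). The osteoblast sum spans 121 to 1506, with all filled points above the open ones. *Ly6a*, which had a higher mean in KO, makes up a large part of the endothelial sum in KO. The macrophage sum is higher in each KO library than in any WT library, although *Cd5l* and *Timd4* of its 3 genes overlapped singly.

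The genes whose profiles were most like those of the 6 were found by the Euclidean distance between log2(FPKM + 1) values over the 6 libraries, each profile centred on its own mean, among 550 candidates that averaged 1 FPKM or more, predicted genes (symbols Gm with digits, or ending in Rik) left out. The nearest to *Lepr* were *Igfbp7* at 0.105, *Fbln5* at 0.184 and *Nid1* at 0.262, where the median distance of the candidate genes was 1.35. The nearest to *Igfbp5* were *Pth1r* at 0.199, *Col2a1* at 0.225 and *Bgn* at 0.231. *Nid1* encodes a basement membrane protein, *Pth1r* the parathyroid hormone receptor of osteoblasts and stromal cells, and *Bgn* a proteoglycan of bone matrix. *Lepr* and *Igfbp5* were not close to each other, at 0.616, which ranked *Igfbp5* 81st of the 620 other genes of the table for *Lepr*.

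*Adipoq* and *Fabp4* were close to each other, at 0.395, which made *Adipoq* the nearest gene to *Fabp4* and *Fabp4* the next to nearest to *Adipoq*, after *Mcam* at 0.388. *Mcam* encodes an adhesion molecule of perivascular cells. *Stab2* at 0.415, the gene of a scavenger receptor of sinusoidal endothelium, followed for *Adipoq*, and *Cyp4b1* at 0.454 and *Plpp3* at 0.465 for *Fabp4*. The distances of both adipocyte genes to their nearest neighbours were larger than those of the other 4 genes to theirs.

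*Cdh2* was nearest to *Kcnj8* at 0.127, *Wif1* at 0.142 and *Mmp14* at 0.153, and *Gja1* to *Cldn5* at 0.152, *Tspan7* at 0.173 and *Tnc* at 0.183. *Kcnj8* encodes a potassium channel subunit of pericytes, *Wif1* a secreted Wnt inhibitor and *Tnc* the matrix protein tenascin C. The contact genes were farther from each other, at 0.697, than *Gja1* was from *Igfbp5*, at 0.433. *Gja1* and *Adipoq* were the farthest apart of the 6 genes, at 0.894. These distances describe 6 libraries that share the *Xist* division, and a gene of low level has a short profile on this scale.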

How the data were processed

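BM cells of 3 KO and 3 WT mRNA libraries were analysed, grouped by sample titles. Reads had been aligned to mm10 with HISAT2 version 2.0.5 and quantified with StringTie version 1.3.3b, per the methods and the submitters' processing notes. The authors deposited FPKM of each library for 621 selected genes, and a log2 value normalized by a step not given in the sources used here, which served as an alternative only. The authors' deposited fold changes, p-values and enrichment results were not used. Of the pathway sheet, only which gene belongs to which pathway was read. Values were transformed to log2(FPKM + 1) and compared in R version 4.3.3 by limma version 3.58.1, using an intensity trend and Benjamini-Hochberg adjustment over 621 genes at 0.05. All genes were above 0 in at least 3 libraries. The step was tested on simulated data. Ratios, lists and distances came from pandas version 2.3.3 (Python version 3.11.15). Coordinates and promoters are those of RefSeq on GRCm38. Genes named are the 6, the 3 nearest to each in profile, up to 4 further genes of highest mean FPKM per list or pathway, and *Xist*. *Cxcl12* and *Kitl* are named outside this rule. The 6 genes and the lists were chosen with earlier results of these data known. Alternatives were another pseudocount, filters, quantile and median scaling, no trend, the deposited log2 values, an *Xist* term, and leaving out each library. The interaction with *Xist*, the ratios within its divisions, the groups without WT replicate 7 and the ratios of list genes were chosen after seeing the data.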

Additional observations from a re-analysis of the deposited data

Results flagged for a closer look

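The difference of KO from WT pointed in opposite directions in the libraries with and without *Xist* for *Fabp4* and *Cdh2*, in that every KO library lay below every WT library with *Xist* and above it without. The mean differences of *Adipoq* (-0.03 with, 0.58 without) and *Igfbp5* (-0.15 with, 0.01 without) also changed sign, but not in every pair of libraries. *Fabp4* was lower in KO replicate 4 than in WT replicates 1 and 3 and higher in KO replicates 8 and 9 than in WT replicate 7, and the difference with *Xist* minus that without was -0.98 on the log2 scale (standard error 0.55, limma adjusted p = 0.365). For *Cdh2* it was -0.53 (standard error 0.36, limma adjusted p = 0.406), with KO replicates 8 and 9 above WT replicate 7 by only 0.01 on average. Neither difference passed the threshold, and 1 library on a side carries each.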

How the results depend on the processing

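No gene passed the adjusted limma threshold in either direction under any alternative over all libraries, and leaving out 1 library gave between 0 and 1 lower genes, with 1 without KO replicate 4 and 1 without KO replicate 9. Of 84 values of the 6 genes under alternatives, 76 kept their sign, 8 turned and 0 passed the threshold, with limma adjusted p between 0.104 and 0.992. The alternatives in the filter and the fit with no trend leave a log2 fold change as it was. Their signs could not turn, and the 76 include them. *Adipoq* turned to 0.024 under quantile normalization, 0.040 under median scaling and 0.27 with an *Xist* term, and leaving out 1 library gave -0.55 to 0.16, above 0 without KO replicate 8 (0.13), WT replicate 1 (0.16) or WT replicate 3 (0.12). *Fabp4* turned to 0.12 with an *Xist* term, and leaving out 1 library gave -0.70 to 0.093, above 0 without WT replicate 3 (0.093). With an *Xist* term the others moved towards 0, to -0.13 for *Lepr*, -0.07 for *Igfbp5*, -0.26 for *Cdh2* and -0.33 for *Gja1*. The cause was not tested. The median of all genes was -0.18 under quantile normalization, -0.22 under median scaling, -0.15 with an *Xist* term, -0.13 without WT replicate 1 and -0.58 without WT replicate 7. The excess of adipocyte over contact genes in KO was 0.72 with a pseudocount of 0.1, which weighs the low values of *Cdh2* more, and 0.40 to 0.58 on leaving out 1 library. No paired analysis was possible because KO replicates 4, 8 and 9 and WT replicates 1, 3 and 7 share no number. Depth was not determined, and 13.0% of all values lay at or below 1 FPKM.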
